A study of Mus musculus with 12 samples.

Results

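Prostaglandins and leukotrienes are lipid messengers made from arachidonic acid and related fatty acids, and 10 genes of their synthesis and breakdown were followed through mouse cortex: Ptgs1, Ptgs2, Ptges, Ptges2, Ptges3, Ptgds, Hpgd, Alox5, Alox5ap and Ltc4s. They were chosen by symbol and matched to the Ensembl identifiers of the count table, where they make up 10 of 53379 genes. All 10 passed the filter on low counts that left 19252 genes to test. The tissue was cortex from C57BL/6J mice of wild-type genotype, collected 6 months after repetitive closed-head injury of less than mild grade (rlmTBI) or after a sham procedure. The purified sham and purified injured groups ate a purified control diet without interruption, and the fish oil sham and fish oil injured groups ate a high-fat diet with fish oil given in cycles. Each of the 4 groups had 3 libraries, 12 in all, numbered 2 to 4 in the labels. In each group the library names of replicates 3 and 4 share a first number, whose meaning the labels do not give. The fish oil diet differed from the purified diet in fat content and in its cycling as well as in fish oil, so these cannot be told apart. Nothing in the labels says that the libraries of a group came from separate mice, so each p-value reflects only the variation among the libraries at hand, which may be technical in part.

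Both pathways begin with fatty acid that phospholipases free from membranes. In the prostaglandin branch, the cyclooxygenases encoded by Ptgs1 and Ptgs2 turn arachidonic acid into prostaglandin H2, which synthases convert to prostaglandin E2 (Ptges, Ptges2, Ptges3) or prostaglandin D2 (Ptgds), and 15-hydroxyprostaglandin dehydrogenase (Hpgd) inactivates the products. In the leukotriene branch, 5-lipoxygenase (Alox5) works with its activating protein (Alox5ap) to make leukotriene A4, which leukotriene C4 synthase (Ltc4s) joins to glutathione. Eicosapentaenoic acid from fish oil is a competing substrate for the same enzymes, and in brain Ptgs2 is best known as a gene of active excitatory neurons, Ptgds as a product of the meninges, choroid plexus and oligodendrocytes.

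The libraries held 46362158 to 70754854 counts each. Markers of cortical excitatory neurons summed to 745.5 to 1610 CPM (counts scaled to the size of the library) in all 12, so these transcripts were present throughout. Slc17a7 held 64.5% of the mean sum. The lowest sums were 745.5 CPM in fish oil sham replicate 2 and 847.3 CPM in purified injured replicate 3. Some libraries also carried transcripts of neighbouring tissue. Olfactory bulb markers summed to 655.8 CPM in purified injured replicate 3 against 2.54 to 26.9 CPM elsewhere, and striatal markers to 1608 CPM in fish oil sham replicate 2 against 99.0 to 646.9 CPM elsewhere. Choroid plexus markers summed to 2707 and 2562 CPM in fish oil injured replicates 3 and 4, to 488.9 CPM in purified sham replicate 3, to 230.5 CPM in fish oil injured replicate 2 and to no more than 67.0 CPM in the other libraries. Values below are CPM after scaling with TMM factors, and differences are log2 fold changes with their standard error (SE) from 1 edgeR quasi-likelihood fit over all 12 libraries.

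Per kilobase of exon, Ptgds stood far above the other members, with a mean of 394.3 CPM per kb over the 12 libraries. Ptges3 followed at 47.9 CPM per kb, then Ptgs2 at 5.96, Ptges2 at 4.98 and Ptgs1 at 4.81 CPM per kb. Hpgd at 3.11, Alox5ap at 2.22 and Ptges at 1.18 CPM per kb were lower. Ltc4s at 0.471 and Alox5 at 0.147 CPM per kb closed the order, with 10 to 64 counts per library for Ltc4s and 19 to 62 for Alox5. The 2 cyclooxygenases thus had similar mean levels per length, while within the leukotriene branch the activating protein exceeded the enzyme it serves. For Ptgs2, the purified sham libraries all lay above those of the group with the next highest mean, fish oil injured. How many of all tested genes have such a gap was not counted. In the single pairwise comparisons, 10.2% to 13.8% of all genes had groups that did not overlap.

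**Figure D1:**
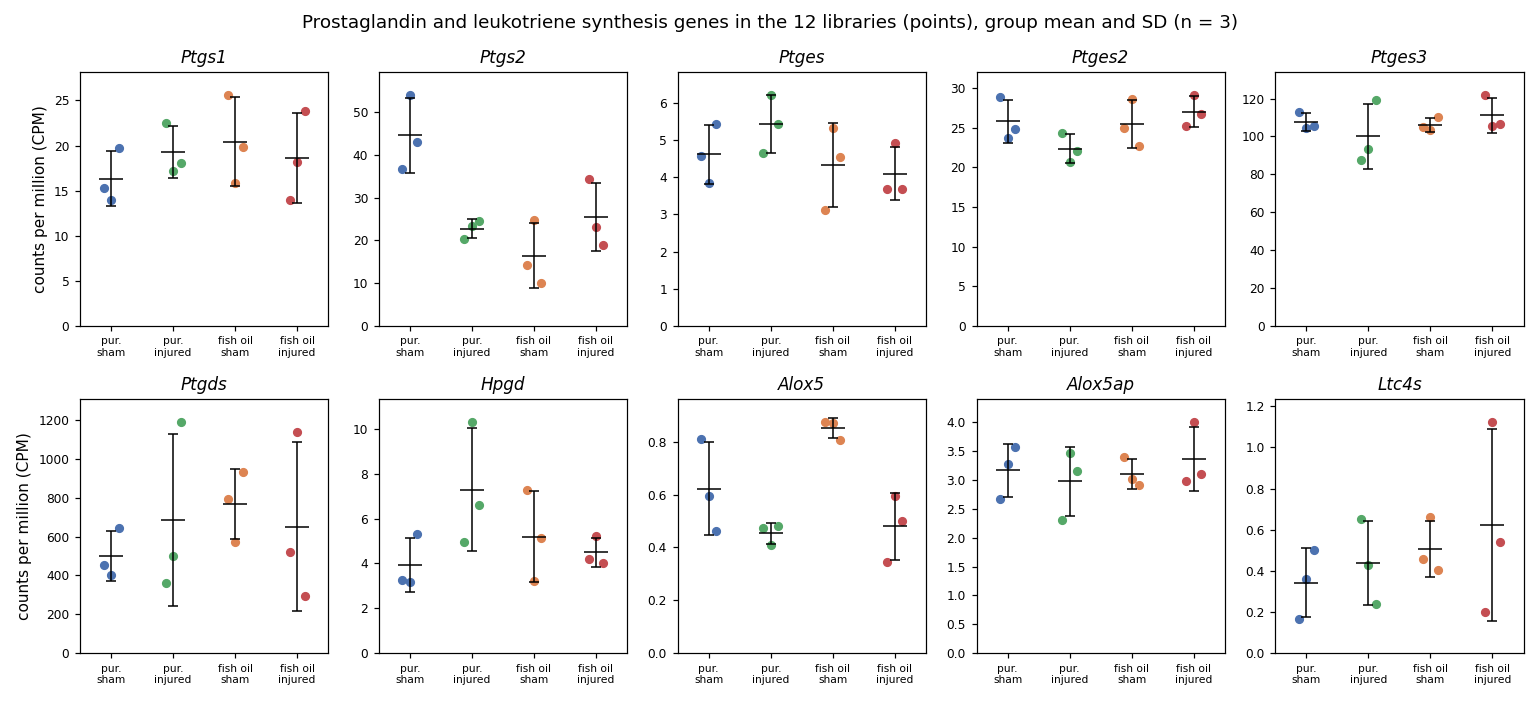
Level of each of the 10 genes in CPM (TMM-scaled, linear axes from 0, one panel per gene) in the 12 libraries of the 4 groups; points are libraries, and bars show the group mean and SD (n = 3). Ptgs2 is highest in the 3 purified sham libraries, at 36.6 to 54.0 CPM, while the groups of most other genes overlap.

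Ptgs2, the inducible cyclooxygenase, showed the clearest separation of groups. It lies on chromosome 1 at 150100031 to 150108227 of GRCm38, plus strand (ENSMUSG00000032487.8). Purified sham replicates 2, 3 and 4 had 36.6, 54.0 and 43.0 CPM, a mean of 44.6 ± 8.79 (SD, n = 3). Purified injured libraries had 20.2, 23.4 and 24.5 CPM, a mean of 22.7 ± 2.22 (SD, n = 3). Fish oil sham libraries had 14.3, 24.8 and 10.03 CPM, a mean of 16.4 ± 7.62 (SD, n = 3), and fish oil injured libraries had 34.3, 23.2 and 18.9 CPM, a mean of 25.5 ± 7.94 (SD, n = 3). The 3 purified sham libraries were thus the 3 highest of all 12, and overlapped neither purified injured nor fish oil sham.

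In sham mice Ptgs2 was 2.71-fold lower on the fish oil diet than on the purified diet, a log2 difference of -1.44 ± 0.31 (SE, 95% interval -2.12 to -0.76). Its unadjusted p of 0.00067 was the 12th smallest of 19252 genes, but after Benjamini-Hochberg adjustment the edgeR p was 0.934. DESeq2 gave the same difference of -1.44 an adjusted p of 0.0087, and over 16 alternatives the difference ran from -1.86 to -1.18 with adjusted p from 0.0087 to 1. On the purified diet the injured libraries were 1.96-fold lower than sham, a log2 difference of -0.97 ± 0.31 (SE, 95% interval -1.64 to -0.30), with an unadjusted p of 0.00873 and an adjusted edgeR p of 0.763. On the fish oil diet the injured libraries were higher on average, by 0.63 ± 0.31 (SE, interval -0.04 to 1.31), and their values overlapped those of sham. In injured mice the diets differed by 0.16 ± 0.30 (SE, interval -0.50 to 0.83). The interaction, the injury difference on fish oil minus that on the purified diet, was 1.61 ± 0.43 (SE, interval 0.65 to 2.56), with an unadjusted p of 0.00334 and an adjusted edgeR p of 0.82. No Ptgs2 comparison passed the adjusted threshold of 0.05 in edgeR. The direction of the 4 Ptgs2 differences with an unadjusted p under 0.05 held in every alternative, including each fit with 1 library left out. In bulk tissue, fewer cells of a type and less RNA per cell cannot be told apart.

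The start of Ptgs2 is shown because its level followed that of activity-induced genes across the libraries. The window runs from 250 bases before the annotated start to 30 bases after it, at chr1:150099781-150100060 on the plus strand of GRCm38.p6, from RefSeq, with that of Ptgs1 at chr2:36230176-36230455, also plus strand, for comparison. Capitals mark matches to 3 motifs, which were chosen with the sequence in view: the core of the cyclic AMP response element (TGACGT, or ACGTCA on the other strand), the E-box CACGTG and the C/EBP palindrome TTGCGCAA.
Ptgs2: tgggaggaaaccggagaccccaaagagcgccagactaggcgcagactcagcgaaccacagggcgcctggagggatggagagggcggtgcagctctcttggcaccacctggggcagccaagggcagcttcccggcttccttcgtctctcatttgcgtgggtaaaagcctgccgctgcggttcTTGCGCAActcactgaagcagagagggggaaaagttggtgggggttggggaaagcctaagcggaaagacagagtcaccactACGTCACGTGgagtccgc
Ptgs1: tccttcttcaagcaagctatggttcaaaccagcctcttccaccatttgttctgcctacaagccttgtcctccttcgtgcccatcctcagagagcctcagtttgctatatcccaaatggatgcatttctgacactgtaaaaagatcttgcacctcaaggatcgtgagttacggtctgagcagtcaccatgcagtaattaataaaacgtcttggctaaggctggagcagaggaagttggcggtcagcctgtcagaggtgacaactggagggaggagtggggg
In Ptgs2, TTGCGCAA began at -69 (chr1:150099962-150099969), ACGTCA at +13 and CACGTG at +17, and the latter pair overlap. Positions are counted from +1 as the annotated start, which need not be where transcription begins in this tissue. Over both strands of 32851 mouse promoter windows of 300 bases, the cyclic AMP response element core was found in 7.51%, the E-box in 7.15% and the C/EBP palindrome in 0.183%. RefSeq entries were matched for 9 of the 10 genes. Besides Ptgs2, Ptges2 held an E-box at -77, and the windows of the other 7 held none of these letters. A match describes the letters and does not show that a factor binds there.

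Across the 12 libraries Ptgs2 moved with the immediate early genes, the transcripts that neurons make within minutes of firing. The sum of 18 such genes was 2421, 2198 and 1852 CPM in purified sham, 1097, 1609 and 1247 CPM in purified injured, 834, 1568 and 1084 CPM in fish oil sham, and 2359, 1366 and 1015 CPM in fish oil injured replicates 2, 3 and 4. The high libraries were the 3 purified sham ones and fish oil injured replicate 2, and the last of these was also the highest fish oil library for Ptgs2. Pearson's r between log2 Ptgs2 and the log2 sum was 0.846 and Spearman's rho 0.888 (n = 12 libraries), and r was 0.907 without the 2 libraries farthest from the median. Of the 18 genes, 17 were lower on fish oil than on the purified diet in sham mice, with a median log2 difference of -0.90 (0.006 over all genes tested), and 15 were lower in injured than sham mice on the purified diet, with a median of -0.73 (0.003 over all genes). All 18 had an interaction above 0, with a median of 1.13, against -0.021 over all genes, and none passed the adjusted edgeR threshold in any comparison. Among 13069 protein-coding genes, those most like Ptgs2 were Egr1 (r = 0.893, rho = 0.951), an immediate early transcription factor, Irf2 (r = 0.889, rho = 0.874) and Hp1bp3 (r = 0.873, rho = 0.769). Without the 2 farthest libraries, r was 0.914 for Egr1, 0.836 for Irf2 and 0.652 for Hp1bp3. Egr1 stood at 557, 560 and 451 CPM in purified sham and at 172, 390 and 194 CPM in fish oil sham. With the group means removed, r with Egr1 was 0.812. This value pools the libraries of all 4 groups and does not show that the 2 genes moved together within each group. In purified sham, replicate 2 had the lowest Ptgs2 of its group, 36.6 CPM, with 557 CPM of Egr1. These correlations share the libraries, their scaling and the 4 groups, and the part of the immediate early genes in the Ptgs2 differences was not tested. Endothelial markers also moved with Ptgs2 (r = 0.672, rho = 0.692, n = 12) and summed to 178.6 to 244.7 CPM in purified sham against 102.5 to 130.8 CPM in fish oil sham. In the injured groups the order differed. The sum was 137.8 to 182.8 CPM in purified injured, with a Ptgs2 mean of 22.7 CPM. In fish oil injured it was 95.35 to 124.3 CPM, with a Ptgs2 mean of 25.5 CPM.

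Ptgs1, the constitutive cyclooxygenase of microglia and other cells (ENSMUSG00000047250.13, chromosome 2, 36230426 to 36252272, plus strand), had overlapping groups throughout. Its levels were 15.3, 13.9 and 19.8 CPM in purified sham, 22.6, 17.1 and 18.1 in purified injured, 25.6, 15.8 and 19.8 in fish oil sham, and 13.9, 18.2 and 23.9 in fish oil injured. The 4 group means lay between 16.3 ± 3.06 and 20.4 ± 4.91 CPM (SD, n = 3 each). The injury difference was 0.24 ± 0.23 (SE, log2) on the purified diet and -0.13 ± 0.23 on fish oil, and the diet difference in sham mice was 0.32 ± 0.23 with an interval from -0.18 to 0.82. Across the libraries Ptgs1 ran opposite to Ptgs2 (r = -0.67, n = 12), the strongest of the 45 correlations between members, and opposite to the immediate early genes (r = -0.893, rho = -0.888, and r = -0.817 without the 2 farthest libraries). It ran with the striatal markers (r = 0.76, rho = 0.832, and r = 0.591 without the 2 farthest libraries). Its highest library, fish oil sham replicate 2, was the one richest in them. The genes most like it were Gcnt2 (r = 0.913), Tesc (r = 0.895) and Mapk8ip1 (r = 0.886). A second annotated gene on the opposite strand, Gm43621, covers 3.81% of the Ptgs1 exons, and without a stated strand setting their reads cannot be told apart.

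The 3 prostaglandin E synthases differed in level more than they differed between groups. Ptges3, the cytosolic synthase that is also the p23 co-chaperone of Hsp90, ran from 87.3 to 121.9 CPM, with group means of 100.0 ± 17.1 to 111.2 ± 9.24 CPM (SD, n = 3). Its 4 pairwise differences lay between -0.11 ± 0.12 and 0.15 ± 0.12 (SE, log2), and their 95% intervals together spanned -0.36 to 0.41. A pseudogene, Ptges3-ps, is annotated, so reads could be shared with it. Ptges2, the membrane-associated synthase, had 24.3, 20.7 and 22.05 CPM in purified injured and 25.2, 29.1 and 26.8 CPM in fish oil injured, and these libraries did not overlap. The difference was 0.27 ± 0.12 (SE, log2, interval 0.01 to 0.54), with an unadjusted p of 0.0462 and an adjusted edgeR p of 0.465. The lowest of those libraries, purified injured replicate 3, was the one with olfactory bulb transcripts, and without it the difference was 0.21. Ptges2 in sham libraries was 28.9, 23.7 and 24.8 CPM on the purified diet and 25.0, 28.7 and 22.7 CPM on fish oil, nearly level between diets. Ptges, the inducible microsomal synthase that is paired with Ptgs2 in inflammation, stayed low at 3.12 to 6.22 CPM. Its group means were 4.62 ± 0.793, 5.43 ± 0.784, 4.34 ± 1.13 and 4.099 ± 0.705 CPM (SD, n = 3) on purified sham and injured, then on fish oil sham and injured. The purified sham libraries, highest for Ptgs2, had 4.56, 3.85 and 5.44 CPM of Ptges and overlapped each of the other groups.

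Ptgds, the lipocalin-type prostaglandin D synthase, varied most between libraries in absolute terms (ENSMUSG00000015090.13, chromosome 2, 25466709 to 25470046, minus strand). It had 455, 401 and 643 CPM in purified sham, 360, 502 and 1189 CPM in purified injured, 795, 573 and 931 CPM in fish oil sham, and 520, 1137 and 296 CPM in fish oil injured. The highest and the lowest of all 12 values both came from injured groups, and the groups overlapped in every comparison. The injury difference was 0.45 ± 0.51 (SE, log2) on the purified diet and -0.24 ± 0.50 on fish oil, and the diet difference was 0.62 ± 0.51 in sham and -0.07 ± 0.50 in injured mice. Meningeal fibroblast markers were high in the same libraries as Ptgds. Their sum was 40.5, 43.3 and 62.1 CPM in purified sham, 42.0, 57.4 and 174 in purified injured, 75.3, 58.0 and 148.5 in fish oil sham, and 68.3, 158 and 29.8 in fish oil injured. Pearson's r with Ptgds was 0.964, rho was 0.958 and r without the 2 farthest libraries was 0.927 (n = 12). The genes most like Ptgds were Aldh1a2 (r = 0.969, rho = 0.972), a retinoic acid synthesis enzyme of the meninges that is also 1 of the 10 meningeal markers, Cd74 (r = 0.966), the invariant chain of MHC class II, and Ptgfr (r = 0.962), the receptor for prostaglandin F2alpha. Ptgfr was much scarcer, at 0.924 to 5.64 CPM, with its highest value in purified injured replicate 4 and its lowest in fish oil injured replicate 4, the same extremes as Ptgds. Perivascular macrophage markers also ran with Ptgds (r = 0.838, rho = 0.734, and r = 0.658 without the 2 farthest libraries). For markers of mature oligodendrocytes r was -0.253 and rho -0.105. For markers of the choroid plexus r was -0.12 and rho -0.007. Fish oil injured replicate 3 had 2707 CPM of them, the most of all libraries, and 1137 CPM of Ptgds. Fish oil injured replicate 4 had 2562 CPM of them and the lowest Ptgds of all libraries, 296 CPM. The part of meningeal or perivascular cells in the Ptgds spread was not tested.

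Hpgd, which inactivates prostaglandins, had its highest group mean in purified injured, at 7.29 ± 2.75 CPM (SD, n = 3) against 3.93 ± 1.20 in purified sham. Its levels were 3.27, 3.19 and 5.31 CPM in purified sham, 4.94, 10.3 and 6.60 in purified injured, 7.26, 3.23 and 5.12 in fish oil sham, and 4.22, 5.25 and 4.04 in fish oil injured. The purified groups overlapped, since 1 sham library at 5.31 CPM lay above the lowest injured library. The injury difference on the purified diet was 0.89 ± 0.34 (SE, log2, interval 0.14 to 1.64), with an unadjusted p of 0.0235 and an adjusted edgeR p of 0.763. On fish oil it was -0.21 ± 0.34, and the interaction was -1.10 ± 0.48 with an unadjusted p of 0.0424 and an adjusted edgeR p of 0.82. The highest library was purified injured replicate 3, the one with olfactory bulb transcripts, and the next highest was fish oil sham replicate 2, rich in striatal transcripts. Without these 2 libraries the injury difference was 0.57 and the interaction -0.47. Over the 12 libraries Hpgd ran with the olfactory markers (r = 0.917, rho = 0.937, and r = 0.94 without the 2 farthest) and with microglial markers (r = 0.866, rho = 0.923). Cdhr1 held 81.3% of the mean olfactory sum, which was only 2.54 to 26.9 CPM outside purified injured replicate 3. The genes most like it were Trdn (r = 0.988), Fam102b (r = 0.959) and Kctd5 (r = 0.955).

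**Figure D2:**
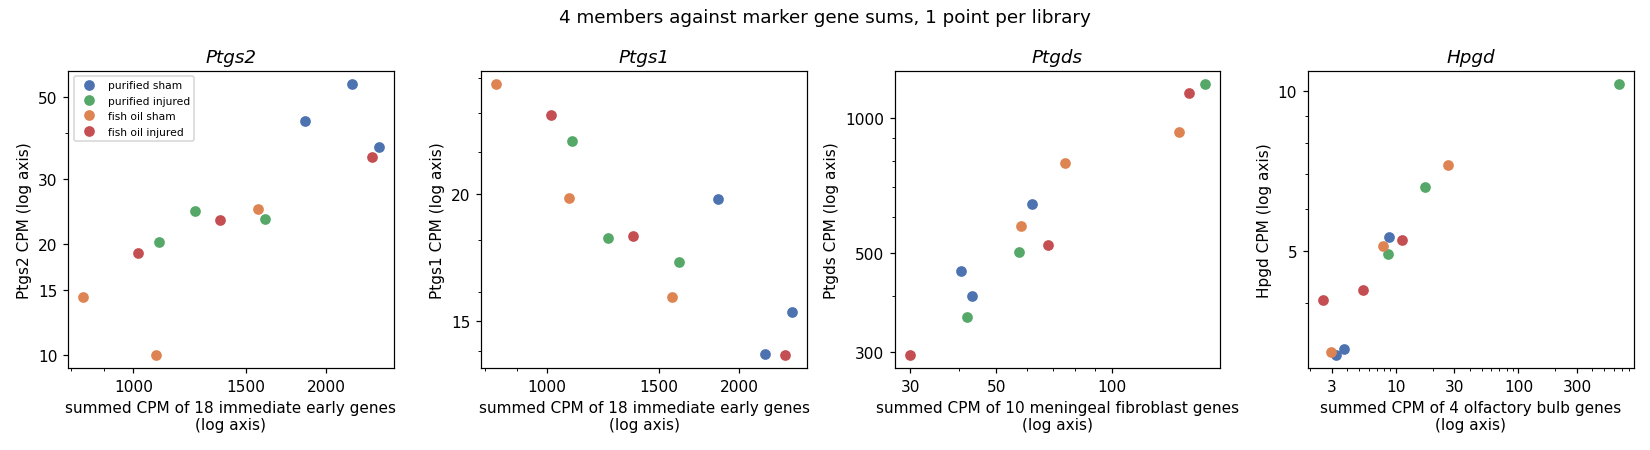
Scatter plots over the 12 libraries, coloured by group, of Ptgs2, Ptgs1, Ptgds and Hpgd against summed marker levels, both in CPM on log axes. Ptgs2 runs with the immediate early genes (r = 0.846) and Ptgs1 opposite to them (r = -0.893), Ptgds with meningeal fibroblast markers (r = 0.964) and Hpgd with olfactory bulb markers (r = 0.917).

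The leukotriene genes were scarce. Alox5, 5-lipoxygenase, had 0.810, 0.596 and 0.463 CPM in purified sham, 0.473, 0.408 and 0.480 in purified injured, 0.875, 0.873 and 0.807 in fish oil sham, and 0.345, 0.597 and 0.5004 in fish oil injured. All 3 fish oil sham libraries lay above all 3 fish oil injured ones, while the purified groups overlapped. The injury difference was -0.82 ± 0.34 (SE, log2, interval -1.56 to -0.08) on fish oil, with an unadjusted p of 0.0331 and an adjusted edgeR p of 0.999, and -0.46 ± 0.34 on the purified diet. Averaged over the diets it was -0.64 ± 0.24, with an unadjusted p of 0.0218 and an adjusted edgeR p of 0.991. With 19 to 62 counts per library, counting error adds to the spread of this gene. Alox5ap, whose protein presents the fatty acid to 5-lipoxygenase, was 2.30 to 4.00 CPM with group means of 2.98 ± 0.602 to 3.36 ± 0.558 CPM (SD, n = 3). Its 4 pairwise differences lay between -0.09 ± 0.22 and 0.18 ± 0.22 (SE, log2), and their intervals together ran from -0.58 to 0.66. The genes most like Alox5ap were Rhoc (r = 0.867), Tmem173 (r = 0.83), which encodes the innate sensor adaptor STING, and Tmem176b (r = 0.822). Without the 2 farthest libraries, r was 0.633 for Rhoc, 0.863 for Tmem173 and 0.513 for Tmem176b. Ltc4s, which makes the first cysteinyl leukotriene, had 0.165 to 1.12 CPM, and its 95% intervals were wide, from -1.03 to 1.75 for injury on the purified diet. Opposite-strand genes cover 26.4% of the exons of Ltc4s (Gm26542) and 13.3% of those of Alox5ap (Gm19719). Blood leukocytes, which carry these enzymes elsewhere in the body, left few transcripts: 8 neutrophil and monocyte markers summed to 0.27 to 4.01 CPM and 6 mast cell markers other than Kit to 0.0385 to 0.6 CPM, and 2 markers of each list were under 0.1 CPM in all libraries. Alox5 itself ran from 0.345 to 0.875 CPM and Ltc4s from 0.165 to 1.12 CPM. Microglial markers summed to 328.5 to 505.4 CPM, and their correlation over the 12 libraries was -0.042 (rho 0.007) with Alox5, 0.582 (rho 0.615) with Alox5ap and 0.452 (rho 0.343) with Ltc4s, the last falling to 0.079 without the 2 farthest libraries. Which cells the leukotriene transcripts came from was not tested.

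Across the 10 genes, the counts in each comparison were set beside those of all 19252 genes tested. No member passed an adjusted p of 0.05 in any of the 7 comparisons in edgeR, and nor did any other gene (0%). The lowest adjusted p of any gene was 0.763 for injury on the purified diet, 0.236 for injury on fish oil, 0.686 for diet in sham mice, 0.362 for diet in injured mice, 0.0716 for injury averaged over diets, 0.13 for diet averaged over injury states and 0.82 for the interaction. At an unadjusted p under 0.05, 2 members were found for injury on the purified diet (Ptgs2 lower, Hpgd higher) against 6.5% of all genes, and 1 for injury on fish oil (Alox5) against 3.48%. For diet in sham mice it was 1 member (Ptgs2) against 3.69%, and for diet in injured mice 1 (Ptges2) against 10.7%. For injury averaged over diets it was 1 (Alox5) against 3.6%, for diet averaged over injury states 1 (Ptgs2, at -0.64 ± 0.22 with an unadjusted p of 0.0129 and an adjusted edgeR p of 0.471) against 8.85%, and for the interaction 2 (Ptgs2 and Hpgd) against 5.76%. One member had groups that did not overlap in each pairwise comparison, against 11.6% of genes for injury on the purified diet, 10.2% for injury on fish oil, 13.8% for diet in sham mice and 11.6% for diet in injured mice. With 10 genes, 1 is a share near each of those backgrounds. Directions among the members were mixed. Fitted values were above 0 for 5 of 10 members (50.6% of all genes) for injury on the purified diet, 5 (49%) for injury on fish oil, 5 (51.1%) for diet in sham mice and 6 (50.8%) for diet in injured mice. They were above 0 for 6 members (50.3%) for injury averaged over diets, 7 (52.5%) for diet averaged over injury states and 4 (47.6%) for the interaction. The members' median log2 differences in the 4 pairwise comparisons, in the same order, were 0.073, -0.007, 0.151 and 0.119, against 0.003, -0.005, 0.006 and 0.006 over all genes. Among the 45 pairs of members, 3 had a correlation of at least 0.6 in size over the 12 libraries, all 3 negative, and the highest positive one was Ptgds with Alox5ap at 0.487. The comparisons share groups of libraries, so their values are not independent of each other.

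**Figure D3:**
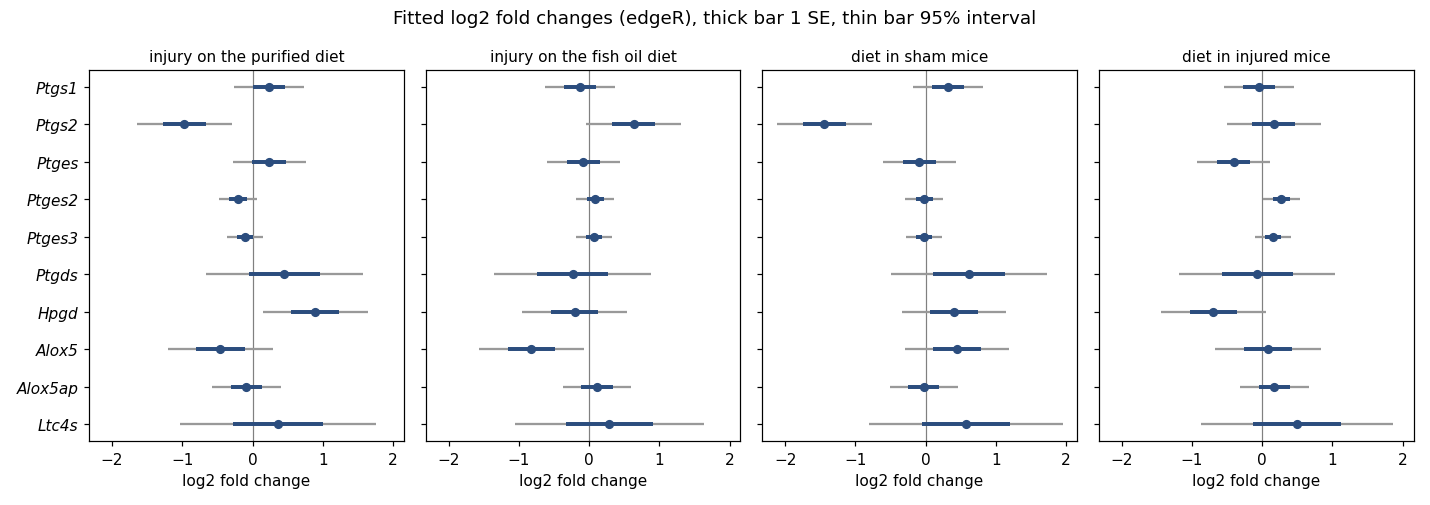
Log2 fold change of each of the 10 genes in the 4 pairwise comparisons of injury and diet, with 1 SE (thick bars) and 95% intervals (thin bars) from the edgeR fit; the vertical line marks no difference. For Ptgs2 the intervals of diet in sham mice (-2.12 to -0.76) and of injury on the purified diet lie below 0, and most other intervals span it.

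The other genes of the pathways were taken from 8 lists of 80 symbols: releasing phospholipases, other prostanoid enzymes, receptors of both branches, enzymes after 5-lipoxygenase, other lipoxygenases, the epoxygenase branch and lipid mediator receptors. Of these, 77 were in the table and 66 could be tested. None passed the adjusted edgeR threshold in either direction in any comparison. At an unadjusted p under 0.05, 3 were higher and 0 lower for injury on the purified diet, 2 and 1 for injury on fish oil, 0 and 1 for diet in sham mice, and 1 and 1 for diet in injured mice, shares of 4.55%, 4.55%, 1.52% and 3.03%. Over all genes the shares were 6.5%, 3.48%, 3.69% and 10.7%. For injury averaged over diets 2 were higher and 2 lower (6.06% against 3.6% of all genes), for diet averaged over injury states 0 and 1 (1.52% against 8.85%), and for the interaction 1 and 1 (3.03% against 5.76%). The share of the lists was thus above that of all genes for injury on fish oil and injury averaged over diets, and below it in the other comparisons. Each of the 66 genes weighs 1.52%, so the shares above that of all genes rest on few genes and give no result about the lists.

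Among the phospholipases, Pla2g5, a secreted enzyme, had 0.875, 1.04 and 1.44 CPM in fish oil sham and 1.24, 4.00 and 3.68 CPM in fish oil injured. Its difference was 1.41 ± 0.42 (SE, log2), with an unadjusted p of 0.00566 and an adjusted edgeR p of 0.999. The 2 high libraries were the 2 with the most choroid plexus transcripts, and whether those transcripts account for the difference was not tested. Pla2g4a, the cytosolic phospholipase that supplies arachidonic acid, ran from 2.24 to 5.71 CPM. Of the prostanoid enzymes, Hpgds, the haematopoietic prostaglandin D synthase of microglia, had 13.5, 10.3 and 13.1 CPM in fish oil sham against 7.94, 9.84 and 8.01 CPM in fish oil injured, without overlap. Its difference was -0.51 ± 0.15 (SE, log2), with an unadjusted p of 0.00561 and an adjusted edgeR p of 0.999. On the purified diet Hpgds was 10.5, 9.62 and 12.05 CPM in sham and 10.6, 10.5 and 10.4 CPM in injured mice. Over all 12 libraries Hpgds ran from 7.94 to 13.5 CPM, where Ptgds ran from 296 to 1189 CPM. Abcc4, a transporter that exports prostaglandins, had a diet difference in sham mice of -0.42 ± 0.18 (SE, log2; lower on fish oil), with an unadjusted p of 0.0327 and an adjusted edgeR p of 0.934.

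Among the receptors, all 6 testable prostanoid receptors and all 5 testable leukotriene receptors had higher fitted values on fish oil than on the purified diet in sham mice, with medians of 0.47 and 0.38 against 0.006 over all genes (51.1% above 0), and none had an unadjusted p under 0.05. In the same comparison 10 of 10 meningeal fibroblast markers (median 0.65), 10 of 10 microglial markers (median 0.26) and 7 of 8 perivascular macrophage markers (median 0.34) also had higher fitted values. So did 8 of 8 striatal markers (median 1.16), 3 of 3 testable olfactory bulb markers (1.30) and 10 of 10 mature oligodendrocyte markers (0.18). Other lists were mostly lower, with 0 of 10 endothelial (median -0.77), 1 of 10 choroid plexus (-1.17) and 1 of 9 cortical excitatory neuron markers (-0.35) higher. The part of any of these lists in the receptor values was not tested. Gpr17, a receptor of oligodendrocyte precursors, was the most abundant leukotriene-list receptor at 28.3 to 49.5 CPM and differed by 0.32 ± 0.23 (SE, log2). In injured mice the counts for the prostanoid and leukotriene receptors were 2 of 6 and 3 of 5, with medians of -0.06 and 0.07. Ppara, a nuclear receptor for fatty acids, had injury differences of 0.69 ± 0.30 on the purified diet and 0.79 ± 0.30 on fish oil (SE, log2; higher in injured mice). Its values were 2.45, 2.11 and 2.53 CPM in purified sham, 2.82, 4.93 and 3.70 in purified injured, 1.77, 1.80 and 3.41 in fish oil sham and 3.33, 4.90 and 3.85 in fish oil injured. Averaged over diets the difference was 0.74 ± 0.21 (SE), with an unadjusted p of 0.005 and an adjusted edgeR p of 0.991. Rxra, its binding partner, was higher on fish oil in injured mice by 0.44 ± 0.19 (SE, log2), with an unadjusted p of 0.0397 and an adjusted edgeR p of 0.457. Downstream of 5-lipoxygenase, Lta4h, which makes leukotriene B4, was far more abundant than Alox5, at 6.12 against 0.147 CPM per kb, and ran from 32.0 to 40.9 CPM over all libraries.

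**Figure D4:**
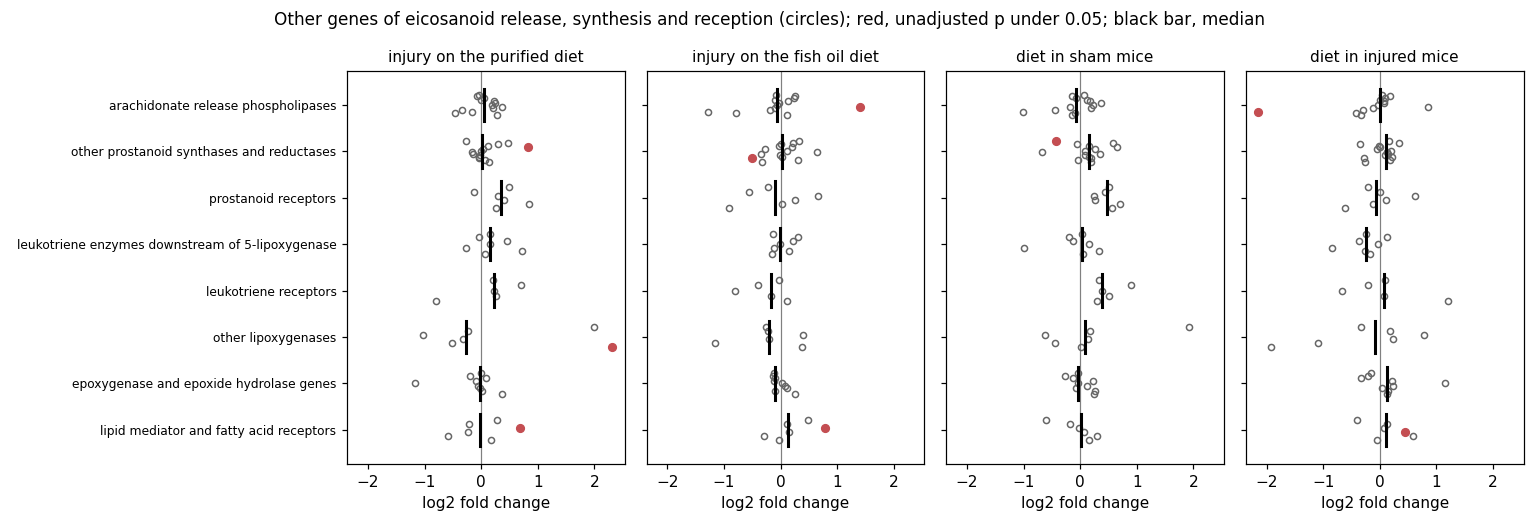
Log2 fold change of the 66 tested genes of the 8 other pathway lists in the 4 pairwise comparisons of injury and diet; circles are genes (red, unadjusted p under 0.05) and black bars list medians. The medians of the prostanoid and leukotriene receptors for diet in sham mice stand at 0.47 and 0.38.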

How the data were processed

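RNA from 12 brain libraries was sequenced as stranded, paired libraries, per the labels' protocols. The mm10 build, the aligner STAR (2.5.2a) and the counter featureCounts (1.4.3-p1) are named in the submitters' processing notes. Not given in the sources used here: how multi-mapping reads were treated, whether counting used strand and which annotation release served. The authors deposited raw counts per gene. Values of 2 (20514) outnumbered values of 1 (11222), so both mates of a pair appear to be counted and the number of fragments is smaller.

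Identifiers were matched to symbols (53274 of 53379), and positions and exon lengths came from the GRCm38 annotation, with which all 10 identifiers matched by version. Genes with enough counts by filterByExpr (minimum count 10) were fitted in edgeR 4.0.16 (TMM factors, glmQLFit and glmQLFTest, robust) as 4 group means over all 12 libraries with 8 residual degrees of freedom and a biological coefficient of variation of 0.289. The 7 comparisons were adjusted by Benjamini-Hochberg over all 19252 genes, with a threshold of 0.05. SEs were derived from the F statistic. The fit was tested on simulated data. Replicates differed beyond sampling noise (chi-square per degree of freedom 30.8 or more), so each counted once. Correlations with the genes most like a member used log2 CPM (prior count 2). Those between members and with marker sums used log2 CPM without a prior count. All are descriptions without p.

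All 10 genes are named. Of each pathway list, the text could name in each comparison the member with the smallest unadjusted p and a mean level of 1 CPM or more, and for 5 members the 3 protein-coding genes most correlated with each. Pla2g4a, Ptgfr's levels, the Egr1 levels, Lta4h's level per kb and Ptgr1 were added after values were seen. Alox12 was also named outside the naming rule. The genes and lists were chosen with earlier results of these data known. Alternatives were RLE and upper-quartile factors, DESeq2 1.42.0, limma-voom (limma 3.58.1) with and without a correlation between replicates 3 and 4 of a group, whose library names share a first number, other filters, the compared groups only, a replicate block, a looser threshold (0.10), and omission of each library in turn or of the 2 with transcripts of other regions.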

Additional observations from a re-analysis of the deposited data

How the results depend on the processing

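No comparison called a member or any other gene in edgeR with RLE or upper-quartile factors, with at least 1 CPM in 3 libraries (15101 genes, 8 members), with the compared groups only, or with the replicate block (0 calls in each). The block could not be read as pairing: same-numbered libraries correlated at -0.371 to 0.278 and 3 of 12 libraries correlated best with their own number. DESeq2 called 14 genes for injury on the purified diet, 37 for injury on fish oil, 17 for diet in sham mice (1 member, Ptgs2, at -1.44), 186 for diet in injured mice, 3 for injury averaged over diets, 99 for diet averaged over injury states and 21 for the interaction. Limma-voom called 1 for injury on fish oil and 2 for injury averaged over diets; with a correlation (estimated at -0.256) between replicates 3 and 4 of a group, whose library names share a first number, it called 1, 2 and, for diet averaged over injury states, 2. Without a filter (32198 genes) 1 was called for injury averaged over diets and 2 for diet averaged over injury states, and a threshold of 0.10 gave 1 for injury averaged over diets. Without the 2 libraries of other regions 1 was called for diet in injured mice. Leaving out 1 library gave 0 to 7 for injury on fish oil (7 without fish oil injured replicate 2), 0 to 83 for diet in injured mice (83 without purified injured replicate 4, 14 without fish oil injured replicate 2, 1 without purified injured replicate 3), 0 to 6 for diet averaged over injury states (6 without purified injured replicate 4) and 0 for the other 4. Apart from Ptgs2 in DESeq2, no member was called in any alternative. The cause of these moves was not tested.

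All 9 member differences with an unadjusted p under 0.05 kept their direction in every alternative. Of the 61 other member values, 30 changed sign in at least 1. The Hpgd difference for injury on the purified diet ran from 0.57 to 1.17, that of Alox5 on fish oil from -1.01 to -0.63 and that of Ptges2 from 0.21 to 0.34. Depth limits Alox5 and Ltc4s most.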

Other observations

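Pla2g4c, a calcium-independent cytosolic phospholipase chosen after its values were seen, had 0.694, 1.13 and 0.570 CPM in purified sham, 0.453, 1.24 and 0.440 CPM in purified injured, 0.228, 0.394 and 0.549 CPM in fish oil sham, and 0.254, 0.0702 and 0.154 CPM in fish oil injured. All fish oil libraries lay below all purified sham libraries, and all fish oil injured libraries lay below all purified injured ones. Over all genes, groups did not overlap in 13.8% for diet in sham mice and 11.6% for diet in injured mice. At levels this low, counting error adds to the spread of Pla2g4c. Averaged over injury states the diet difference was -1.58 ± 0.42 (SE, log2), with an unadjusted p of 0.00268 and an adjusted edgeR p of 0.451. In injured mice it was -2.14 ± 0.61 (SE), with an unadjusted p of 0.00444 and an adjusted edgeR p of 0.369.

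Alox12, 12-lipoxygenase, stood at 4.69 CPM in purified injured replicate 3, the library with olfactory bulb transcripts, and at 0.171 to 0.808 CPM in the other 11. The naming rule did not select Alox12. Ptgr1, a reductase that inactivates prostaglandins and leukotriene B4, was higher in injured than sham mice on the purified diet by 0.84 ± 0.38 (SE, log2), with an unadjusted p of 0.0495 and an adjusted edgeR p of 0.763. The groups overlapped in their libraries. Its mean level was under the 1 CPM that the naming rule asked for, so it stands outside that rule.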
